A study of Mus musculus with 8 samples.

Results

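The genes described here are those of the mouse proteasome family, taken by symbol: every gene whose symbol starts with Psma, Psmb, Psmc, Psmd, Psme, Psmf or Psmg followed by a digit. They numbered 49 of the 18193 genes measured. Each gene was read by its brightest probe set naming that gene alone, by the mean over all 8 arrays, and 22 of the 49 had only 1 such probe set. Of the 49, 47 encode proteasome subunits, activators, assembly chaperones or the inhibitor PI31. The other 2, Psmc3ip and Psme3ip1, are named after a protein partner and are not subunits. The only probe set for the activator subunit Psme2 also names its copy Psme2b, so Psme2 was not analysed here as a gene.

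The proteasome degrades proteins that are mostly tagged with ubiquitin. Its 20S core is a barrel of alpha rings, which gate the entry, around beta rings, which hold the catalytic subunits Psmb5, Psmb6 and Psmb7. The 19S particle has a base, with a ring of ATPases and some non-ATPase subunits, and a lid of non-ATPase subunits. It binds ubiquitinated proteins, unfolds them and feeds them into the core. Alternative caps bind the same core: PA28 (Psme1 with Psme2), PA28gamma (Psme3) and PA200 (Psme4). Male germ cells carry a form of their own, in which Psma8 takes the place of the alpha subunit Psma7. PA200 is abundant in the testis and is known to act with that form on acetylated core histones when histones leave spermatid chromatin.

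Round spermatids, the haploid cells left by meiosis before the sperm head forms, were purified from adult BrdtΔBD1 mutant mice and from control mice, whose genotype the labels do not give further. Brdt is a bromodomain protein of male germ cells that binds acetylated histones, and the mutant allele removes its first bromodomain. All animals were 129 Sv/Ev mice between 2 and 4 months old, and each array held RNA from the pooled spermatids of 7 of them, with 4 mutant and 4 control arrays. The labels do not state the zygosity of the allele. The design asks how transcripts of round spermatids differ when that bromodomain is missing. Values are log2 intensities normalized by the authors, so a difference of 1 is a doubling, and levels of different probe sets are not set against each other.

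Array medians lay between 3.10 and 3.14, and arrays correlated over genes at 0.971 to 0.996. Means of 17 round spermatid markers were 13.05 to 13.39 on mutant arrays and 13.05 to 13.29 on control arrays. The brightest Brdt probe set was 10.29 to 11.09 on mutant arrays and 11.72 to 12.25 on control arrays (log2 difference -1.41, limma adjusted p = 0.00735). Whether it lies in the deleted stretch is not given in the sources used here, so it does not check the labels. Signs of other cells and of RNA quality moved with the groups or with single arrays. Means of 21 Sertoli cell markers were 7.10, 5.78, 7.37 and 6.96 on mutant arrays 1 to 4, against 4.81, 4.97, 5.65 and 5.56 on control arrays 1 to 4, and did not overlap. Of these 21 markers, 13 had a mean of at least 4, 6 rose (13 with the replicate number as a block) and 0 fell. Log2 differences were positive for 20 of the 21, with a median of 1.54 and the highest, 4.01, for Fabp5. The Sertoli transcription factor Sox9 averaged 3.80 in both groups. Means of 18 spermatocyte markers were 9.98, 10.1, 9.40 and 9.17 on mutant arrays, against 9.50, 9.39, 9.04 and 9.05 on control arrays. The gap between the 3' and 5' control probe sets for Gapdh (3' minus 5'), a sign of RNA degradation, was 0.60, 0.33, 0.94 and 0.59 on mutant arrays, against 1.68, 0.48, 2.05 and 0.46 on control arrays. In these bulk samples a lower share of one cell type and less RNA per cell cannot be told apart.

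No proteasome gene passed an adjusted p of 0.05 with group as the only term. Those that passed with the replicate number as a block were higher on mutant arrays. Most of the family differed by less than 0.5, as did most genes. The median log2 difference (mutant minus control) over the 49 genes was 0.07, against -0.02 over all genes, and 38 of the 49 differed by less than 0.5 (77.6%, against 80.6% of all genes). In limma with group as the only term, 0 of the 49 passed an adjusted p of 0.05, where 3.71% of all genes passed in either direction. At an unadjusted p under 0.05, 9 were higher (18.4%, against 11.0% of all genes) and 1, the catalytic subunit Psmb5, was lower (2.04%, against 9.16%). Mutant and control arrays of the same replicate number deviated together, and with that number as a block 8 of the 49 rose (16.3%, against 6.60% of all genes) and 0 fell (4.94% of all genes). The 8 were the alpha subunits Psma1, Psma2 and Psma7, the beta subunit Psmb1, the ATPases Psmc1 and Psmc4, and the activators Psme1 and Psme3. Most of the family was bright, and bright genes passed more often. Among the 8998 genes whose mean over all arrays was at least 4, which include 43 of the 49, 11.0% rose with the block, and by the unadjusted p 15.8% were higher and 14.8% lower. By that p 8 of those 43 genes were higher, a share near that of other bright genes, and 1 was lower. The 8 include Psme1, which reaches a mean of 4 only through its mutant arrays (4.53, against 3.54 on control arrays). Of the 43, 33 differed by less than 0.5, against 67.2% of the 8998 genes.

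The count of 8 moved with the pairs used. Without replicate 3 of both groups 0 rose with the block, without replicate 4 it was 2 (Psma2 and Psma7), and without replicate 1 or 2 it was 6. With the block and the Sertoli marker mean as a covariate, or the Gapdh 3' minus 5' difference, 0 rose. The count over all 18193 genes moved as well. With the block 1201 of them rose, against 79 without replicate 3, 358 without replicate 4, 627 without replicate 1 and 1402 without replicate 2. With the Sertoli covariate 0 of all genes rose and with the Gapdh covariate 9, so these 2 fits called almost no gene of any kind. The Sertoli marker means did not overlap between the groups, so fits with that covariate cannot fully separate it from the group difference.

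Within pairs, 16 of the 49 were higher on the mutant array of all 4 pairs (32.7%, against 17.7% of all genes), and 9 were lower in all 4 (18.4%, against 18.9%). Among genes with a mean of at least 4, 23.5% were higher and 24.6% lower in all 4 pairs, and of the 43 proteasome genes there 14 were higher and 8 lower. The 14 include Psme1, which passes this filter only through its mutant arrays. Every mutant array lay above every control array for 4 genes, Psma1, Psma7, Psmb10 and Psme3 (8.16%, against 6.15% of all genes). With a mean of at least 4 this held for 3 of 43, against 8.38% of such genes, so the share was not above that of genes as bright. Every mutant array lay below every control array for Psmb5 alone (2.04%, against 6.49%).

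**Figure D1:**
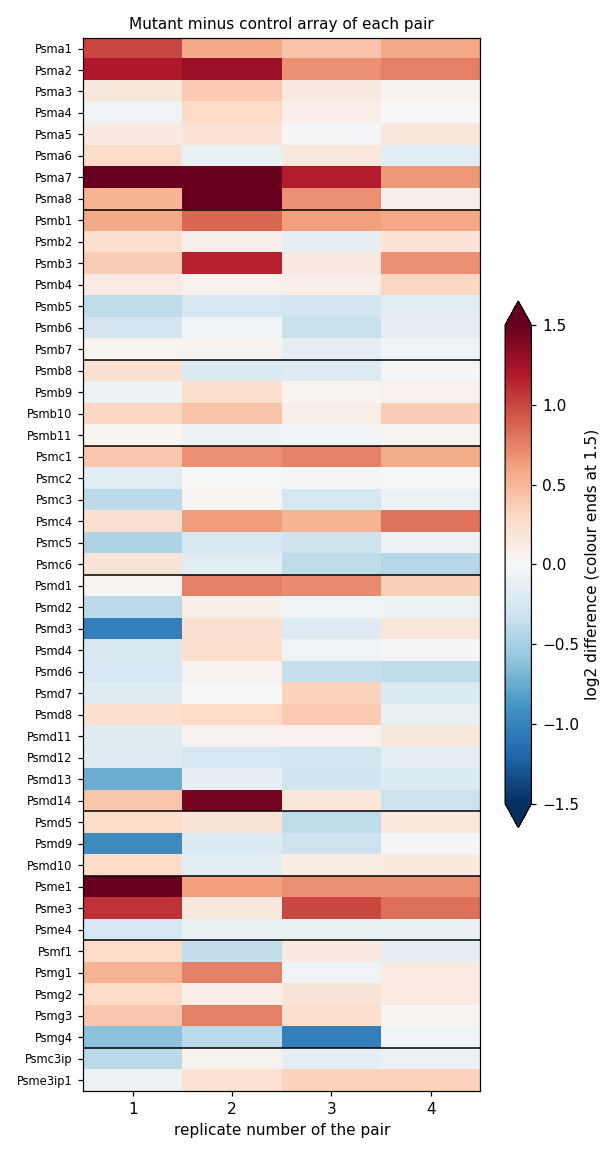
Log2 difference between the mutant and the control array of the same replicate number (columns, pairs 1 to 4) for each of the 49 genes (rows, grouped by role with black lines), red where the mutant array was higher and blue where it was lower; colours end at 1.5. Psma1, Psma2, Psma7, Psmb1, Psmc1, Psmc4, Psme1 and Psme3 are red in all 4 pairs, and Psmb5, Psmb6 and Psme4 are pale blue in all 4.

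Promoters are shown for 4 of the genes the values turn on: the alpha subunits Psma2 and Psma7 and the activator Psme3, which rose with the block, and Psme4, which passed neither fit. Sequences are RefSeq's, on GRCm38.p6, from 250 bases before to 50 bases after the annotated start, on the gene's strand. Of the 49 genes, 41 matched the promoter table. Capitals mark matches, on either strand, to CCAAT, to the ETS core CCGGAAG and to the antioxidant response element core TGACNNNGC, the motif of the proteasome regulator Nfe2l1, and no 2 of these matches overlap in the sequences shown.
Psma2 (chr13:14612992-14613291, plus strand): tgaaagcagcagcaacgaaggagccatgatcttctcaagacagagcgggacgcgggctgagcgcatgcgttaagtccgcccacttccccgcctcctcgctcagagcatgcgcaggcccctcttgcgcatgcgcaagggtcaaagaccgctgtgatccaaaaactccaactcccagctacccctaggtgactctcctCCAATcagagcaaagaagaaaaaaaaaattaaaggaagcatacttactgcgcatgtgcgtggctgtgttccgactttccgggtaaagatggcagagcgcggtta
Psma7 (chr2:180042415-180042714, minus strand): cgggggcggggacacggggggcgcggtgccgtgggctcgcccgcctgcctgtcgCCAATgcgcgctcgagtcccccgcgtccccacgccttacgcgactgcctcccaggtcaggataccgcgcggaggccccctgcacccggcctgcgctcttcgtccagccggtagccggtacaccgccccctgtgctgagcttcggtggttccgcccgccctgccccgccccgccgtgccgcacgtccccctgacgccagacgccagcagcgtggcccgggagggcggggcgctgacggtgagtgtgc
Psme3 (chr11:101315963-101316262, plus strand): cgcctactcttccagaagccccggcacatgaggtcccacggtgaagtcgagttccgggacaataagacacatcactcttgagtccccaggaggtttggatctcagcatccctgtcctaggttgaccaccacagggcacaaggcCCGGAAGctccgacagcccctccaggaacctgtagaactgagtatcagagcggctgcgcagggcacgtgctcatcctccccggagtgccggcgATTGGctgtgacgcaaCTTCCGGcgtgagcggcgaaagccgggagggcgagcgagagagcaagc
Psme4 (chr11:30771525-30771824, plus strand): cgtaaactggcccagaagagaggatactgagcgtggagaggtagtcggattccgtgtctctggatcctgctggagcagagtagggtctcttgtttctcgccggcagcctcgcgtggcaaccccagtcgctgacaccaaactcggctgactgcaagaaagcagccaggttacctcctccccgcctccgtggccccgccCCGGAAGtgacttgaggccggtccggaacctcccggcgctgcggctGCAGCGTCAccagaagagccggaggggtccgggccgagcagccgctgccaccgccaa
Psma2 and Psma7 hold 1 CCAAT each, starting at positions -54 and -196 from the start. Psme3 holds the ETS core at -107 on the plus strand and at 3 on the minus strand, and CCAAT at -14 on the minus strand. Psme4 holds the ETS core at -53 and the antioxidant response element core at -7 on the minus strand. The ETS core stood in 16 of the 41 promoters (39.0%), against 15.0% of the 14452 promoters of all genes measured, and in 2 of the 7 promoters of genes that rose with the block. CCAAT stood in 16 of the 41 (39.0%), against 42.0%, and in 5 of those 7. The antioxidant response element core stood in 6 of the 41 (14.6%), against 16.2%, and in 0 of the 7. The cAMP response element TGACGTCA stood in 0 of the 41, against 2.92%. These matches describe letters in this window and say nothing about binding.

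All 8 alpha ring genes had a positive log2 difference, with a median of 0.42 and a range of 0.04 to 1.36, and 3 of the 8 rose with the block. Psma7, the somatic form of the alpha subunit that Psma8 replaces in germ cells, read 8.54, 7.04, 7.74 and 7.03 on mutant arrays 1 to 4, against 6.45, 5.54, 6.56 and 6.37 on control arrays 1 to 4. The groups did not overlap, and mutant arrays averaged 2.56-fold higher (log2 difference 1.36, 95% interval 0.53 to 2.18). In limma the adjusted p was 0.0782, and 0.0191 once the replicate number entered as a block. With the Sertoli marker mean as a covariate the difference was 0.49 (SE 0.60). Mutant array 2, whose Sertoli marker mean was the lowest of the mutant arrays, was with mutant array 4 also the lowest for Psma7, and the part of those markers in the difference was not tested.

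Psma8, the germ cell form, read 9.69, 11.02, 9.27 and 9.11 on mutant arrays, against 9.16, 9.12, 8.58 and 9.03 on control arrays. Mutant array 2 stood highest, and the groups overlapped. The log2 difference was 0.80 (95% interval -0.07 to 1.67), with an adjusted p of 0.289, and 0.128 with the block. Without mutant array 2 it was 0.38 (adjusted p = 0.311). With the Sertoli marker mean as a covariate it was 2.31 (SE 0.39, adjusted p = 0.0574), and the part of those markers in it was not tested. The 2 arrays highest for Psma8, mutant arrays 2 and 1, also had the highest spermatocyte marker means (10.1 and 9.98), and the part of spermatocyte RNA in its level was not tested.

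Psma2, one of the subunits whose tails form the gate, read 10.47, 10.19, 9.54 and 9.14 on mutant arrays, against 9.27, 8.89, 8.86 and 8.39 on control arrays. The groups overlapped by the lowest mutant and the highest control array only. Within the 4 pairs the mutant array was higher by 1.20, 1.30, 0.68 and 0.76, a mean of 0.98 or 1.98-fold (adjusted p = 0.116, and 0.0138 with the block). With the Sertoli marker mean as a covariate the difference was 1.59 (SE 0.53, adjusted p = 0.22), and the part of those markers in it was not tested. Psma1, another alpha subunit, read 9.94, 9.39, 9.12 and 9.01 on mutant arrays, against 8.94, 8.82, 8.69 and 8.43 on control arrays, with every mutant array above every control array (log2 difference 0.64, adjusted p = 0.135, and 0.0281 with the block). The other 4 alpha genes, Psma3 to Psma6, had log2 differences of 0.04 to 0.19 and passed neither fit. Psma3 was the one of these 4 that was higher in all 4 pairs, by a mean of 0.19 (95% interval -0.13 to 0.51, adjusted p = 0.317 with the block).

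**Figure D2:**
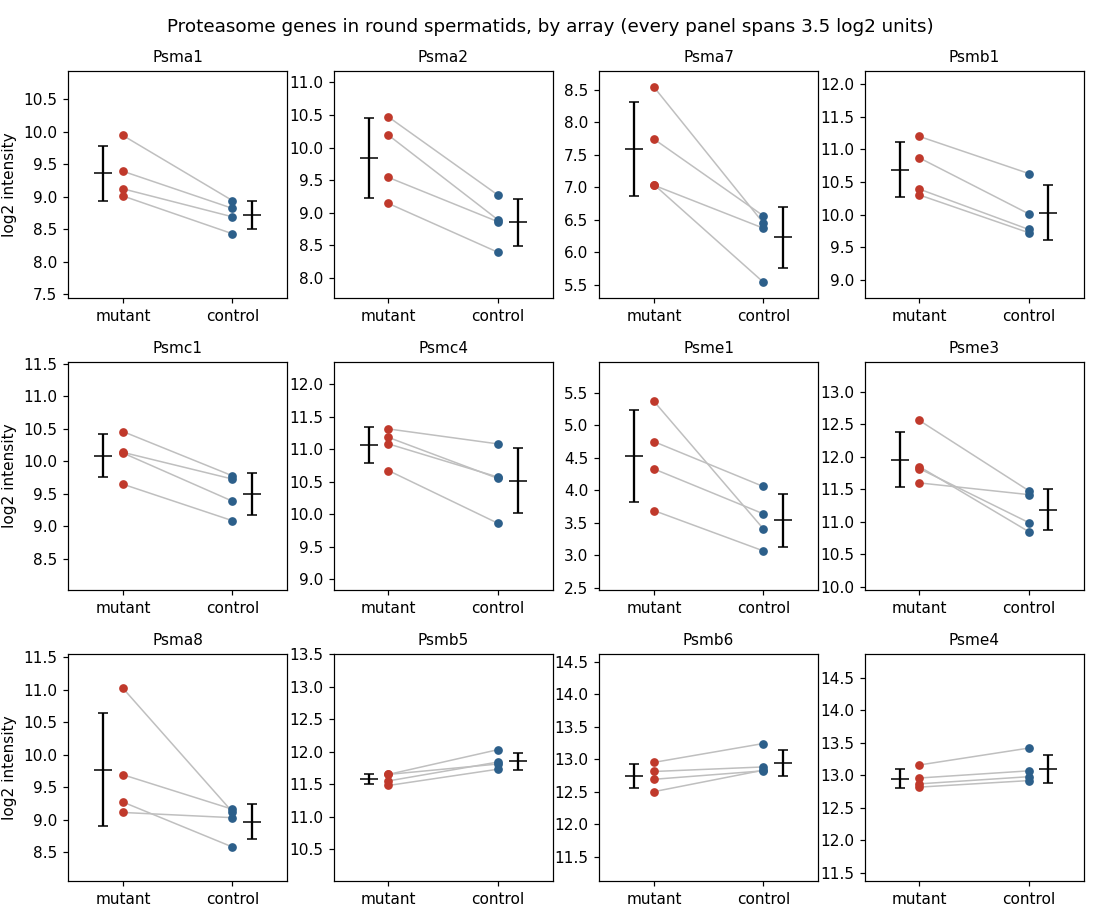
Log2 intensity of 12 proteasome genes on the 4 mutant arrays (red, left) and the 4 control arrays (blue, right) of each panel; grey lines join arrays of the same replicate number, and black bars give the mean ± SD (n = 4 arrays). The upper 8 panels show the genes that rose with the replicate block, whose lines all fall towards the control side; Psmb5, Psmb6 and Psme4 run the other way by 0.15 to 0.27 on average.

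The beta ring was mixed, and its catalytic subunits did not rise. Of 7 genes 4 had a positive and 3 a negative log2 difference, with a median of 0.10, and 1 rose with the block. That gene, Psmb1, a non-catalytic subunit, read 11.20, 10.87, 10.39 and 10.30 on mutant arrays, against 10.63, 10.01, 9.77 and 9.72 on control arrays. Each mutant array lay above its pair's control array although the groups overlapped (log2 difference 0.66, adjusted p = 0.199, and 0.0169 with the block). Psmb3, another non-catalytic subunit, had a log2 difference of 0.58 and was higher in all 4 pairs (adjusted p = 0.453, and 0.0899 with the block). Without mutant array 2 it was 0.32, and without control array 4 it was 0.28. The second bright Psmb3 probe set gave 0.97, with overlapping groups (adjusted p over probe sets = 0.186, and 0.0739 with the block).

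The 3 catalytic subunits all had negative differences. Psmb5, the chymotrypsin-like subunit, read 11.65, 11.48, 11.55 and 11.65 on mutant arrays, against 12.03, 11.73, 11.84 and 11.81 on control arrays. All mutant arrays lay below all control arrays, by a log2 difference of only -0.27 (95% interval -0.52 to -0.02), and neither fit passed (adjusted p = 0.209, and 0.14 with the block). Psmb6, the caspase-like subunit, read 12.95, 12.81, 12.50 and 12.69 on mutant arrays, against 13.24, 12.88, 12.83 and 12.82 on control arrays. Its groups overlapped, and its difference of -0.20 was negative in all 4 pairs (adjusted p = 0.496, and 0.271 with the block). Psmb7, the trypsin-like subunit, averaged 11.81 ± 0.15 on mutant arrays and 11.84 ± 0.13 on control arrays (SD, n = 4 each).

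The interferon-inducible replacements of those subunits were dim in both groups, with means under 4 on the log2 scale. Psmb8 averaged 3.02 ± 0.15 on mutant arrays and 3.06 ± 0.16 on control arrays, and Psmb9 3.19 ± 0.08 on mutant arrays and 3.12 ± 0.14 on control arrays. Psmb10 read 3.38, 3.34, 3.4 and 3.33 on mutant arrays, against 3.07, 2.91, 3.31 and 2.96 on control arrays. Its groups did not overlap, but the difference of 0.30 passed neither fit (adjusted p = 0.191, and 0.129 with the block) and lies where the authors' background correction compresses values. The thymus form Psmb11 averaged 2.50 ± 0.07 on mutant arrays and 2.51 ± 0.11 on control arrays. Of 19 interferon and antigen presentation genes measured, 14 were dim in both groups and 0 rose or fell in either fit, and at an unadjusted p under 0.05 2 were higher and 0 lower.

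In the 19S particle, 2 of the 6 ATPases rose with the block and the other 4 had negative differences. Psmc1 (Rpt2), whose tail opens the core's gate, read 10.14, 10.46, 10.13 and 9.65 on mutant arrays, against 9.73, 9.78, 9.39 and 9.09 on control arrays. Only the lowest mutant array lay within the control range (log2 difference 0.60, adjusted p = 0.156, and 0.0221 with the block). Psmc4 (Rpt3) read 11.31, 11.18, 11.08 and 10.67 on mutant arrays, against 11.08, 10.55, 10.57 and 9.86 on control arrays. Its groups overlapped, and every pair was higher on its mutant array (log2 difference 0.55, adjusted p = 0.27, and 0.0435 with the block). Without control array 4 the difference was 0.33 (adjusted p = 0.474), and with the block the call was lost when adjusted over all probe sets (adjusted p = 0.0501). On its second bright probe set every mutant array lay above every control array, by a mean of 0.44. That probe set passed neither fit (adjusted p over probe sets = 0.0688, and 0.0561 with the block). Psmc2, Psmc3, Psmc5 and Psmc6 had log2 differences of -0.05, -0.18, -0.28 and -0.19 and passed neither fit. Psmc5 (Rpt6) was lower on the mutant array in all 4 pairs, by a mean of 0.28 (95% interval -0.58 to 0.02, adjusted p = 0.159 with the block).

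None of the 11 non-ATPase 19S subunits passed either fit, and 1 of them, Psmd1, had an unadjusted p under 0.05. Their log2 differences ran from -0.34 to 0.46 with a median of -0.01. Psmd1 (Rpn2), the base scaffold, had the highest, 0.46 (adjusted p = 0.243, and 0.104 with the block), and was higher in all 4 pairs. Psmd14 (Rpn11), the enzyme that cuts ubiquitin off the substrate, read 9.41, 9.53, 8.65 and 8.0 on mutant arrays, against 8.99, 8.09, 8.47 and 8.32 on control arrays. Its arrays spread widely and overlapped, with a difference of 0.43 (95% interval -0.35 to 1.21). Psmd13 (Rpn9), a lid subunit, had the lowest, -0.34, and was lower in all 4 pairs (adjusted p = 0.468, and 0.161 with the block). The assembly chaperones of the 19S base, Psmd5, Psmd9 and Psmd10, had differences of 0.06, -0.37 and 0.10, none past either fit.

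**Figure D3:**
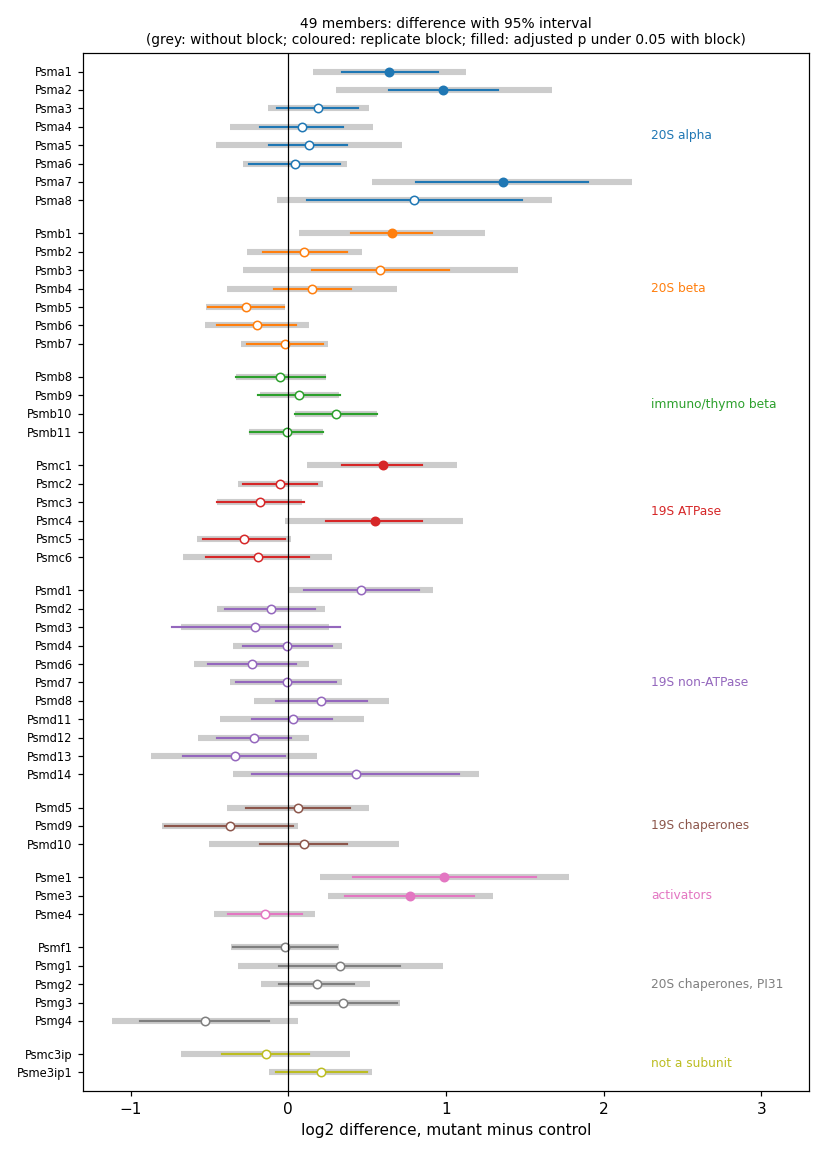
Log2 difference, mutant minus control, of the 49 genes (rows, by role) with the 95% interval without a block (grey bars) and with the replicate block (coloured lines); filled points are the 8 genes with an adjusted p under 0.05 with the block. All 8 alpha ring points lie right of 0, while catalytic beta subunits and most 19S subunits sit at or left of 0.

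Of the activators, PA28gamma and PA28alpha rose with the block and PA200 did not. Psme4 (PA200) read 13.16, 12.87, 12.96 and 12.82 on mutant arrays, against 13.42, 12.98, 13.07 and 12.92 on control arrays. The mutant array was lower in all 4 pairs, while the groups overlapped. The log2 difference was -0.15 (95% interval -0.47 to 0.17, adjusted p = 0.63), and with the block the interval was -0.38 to 0.09 (adjusted p = 0.394), which bounds a fall at 0.38 and a rise at 0.09 for this probe set. The other 2 bright Psme4 probe sets gave 0.08 and 0.23, so the sign depended on the probe set. Averaging all 6 of its probe sets, dim ones among them, gave a difference of 0.00.

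Psme3 (PA28gamma), the nuclear activator that works without ATP and ubiquitin, read 12.56, 11.60, 11.85 and 11.82 on mutant arrays, against 11.48, 11.42, 10.85 and 10.99 on control arrays. Every mutant array lay above every control array, with mutant array 1 highest. The difference was 0.77, or 1.71-fold (95% interval 0.25 to 1.30 in log2, adjusted p = 0.107, and 0.0379 with the block). Its second bright probe set gave 0.19 (SE 0.45, and a 95% interval of -0.08 to 0.46 with the block). The mean of its probe sets, which include a dim one at -0.36, gave 0.20 (adjusted p = 0.541).

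Psme1 (PA28alpha), an interferon-inducible cap subunit, read 5.37, 3.69, 4.75 and 4.33 on mutant arrays, against 3.41, 3.07, 4.06 and 3.64 on control arrays. The groups overlapped, and the control mean of 3.54 lies in the compressed range. The difference was 0.99 (adjusted p = 0.157, and 0.0498 with the block, or 0.0621 with the block when adjusted over all probe sets). The order of the mutant arrays was close to that of their Sertoli marker means, and with that mean as a covariate the difference was -0.27 (SE 0.42). The probe set shared by Psme2 and Psme2b read 6.10, 4.73, 4.98 and 4.63 on mutant arrays, against 4.33, 3.95, 4.67 and 4.45 on control arrays. It overlapped between groups and passed neither fit (log2 difference 0.76, adjusted p = 0.299, and 0.151 with the block).

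**Figure D4:**
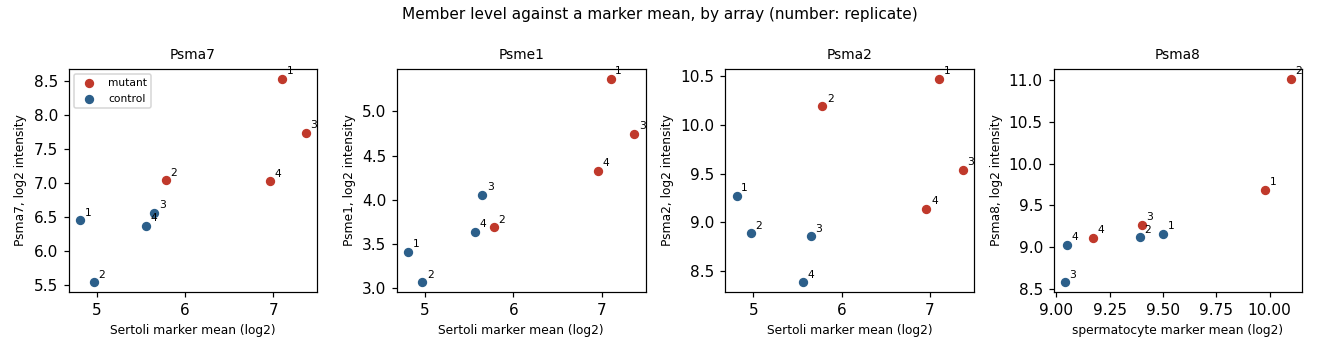
Log2 intensity of Psma7, Psme1 and Psma2 against the mean of the Sertoli cell markers, and of Psma8 against the mean of the spermatocyte markers, on the 4 mutant arrays (red) and the 4 control arrays (blue), numbered by replicate. Mutant array 2, with a Sertoli mean of 5.78, lies low among mutant arrays for Psma7 (7.04) and Psme1 (3.69) and high for Psma2 (10.19).

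Leukocyte markers also moved on some arrays. Their mean over 16 genes was 4.28, 3.21, 4.36 and 3.95 on mutant arrays, against 3.17, 3.38, 3.22 and 3.16 on control arrays. Log2 differences were positive for 15 of the 16. The highest was 2.91 for Cd74, which read 8.86 and 8.28 on mutant arrays 3 and 4 and averaged 3.58 on control arrays. The pan-leukocyte marker Ptprc averaged 2.64 in both groups, and 10 of the 16 were dim in both. Of those 16 genes 0 rose or fell in either fit, and at an unadjusted p under 0.05 3 were higher and 0 lower. Leydig cell markers (8 genes) averaged 4.64 to 5.0 on mutant arrays and 4.59 to 4.78 on control arrays, with 0 past either fit and 0 at an unadjusted p under 0.05. The part of these cells in the values of Psme1 and Psma7 was not tested.

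The core's assembly chaperones and its inhibitor passed neither fit. Psmg1 and Psmg2, which pair to build the alpha ring, had log2 differences of 0.33 and 0.18. Psmg3 and Psmg4, their partner pair, were dim and had differences of opposite sign, 0.35 and -0.53 (adjusted p = 0.164 and 0.0982 with the block). The inhibitor Psmf1 (PI31) averaged 13.07 ± 0.15 on mutant arrays and 13.09 ± 0.25 on control arrays (SD, n = 4 each). Psmc3ip (Hop2), a meiotic recombination factor, averaged 11.84 ± 0.30 on mutant arrays and 11.99 ± 0.45 on control arrays, with a difference of -0.14 (adjusted p = 0.791). Psme3ip1, a partner of Psme3, had a difference of 0.21 (adjusted p = 0.473).

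Other probe sets of the same genes were compared where they were bright. Of 17 genes with at least 2 probe sets of mean 4 or more, 11 had the same sign in all of them, and Psma5, Psmb4, Psmd4, Psmd11, Psmd13 and Psme4 did not. The second bright Psma7 probe set read 8.39, 5.43, 8.11 and 7.17 on mutant arrays, against 6.02, 4.47, 6.45 and 5.90 on control arrays. Its groups overlapped through mutant array 2, and the difference of 1.57 was positive, as for the first (adjusted p over probe sets = 0.308, and 0.0163 with the block). Psmd11 (Rpn6), a lid subunit, was split. Its brightest probe set averaged 11.48 ± 0.23 on mutant arrays and 11.45 ± 0.37 on control arrays. A weaker one read 5.93, 4.97, 5.74 and 4.94 on mutant arrays, against 4.50, 4.02, 4.94 and 4.22 on control arrays, and rose with the block (log2 difference 0.98, adjusted p over probe sets = 0.137, and 0.0158 with the block). A further one gave -0.34 (adjusted p = 0.288 with the block). The difference between these probe sets was not tested.

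**Figure D5:**
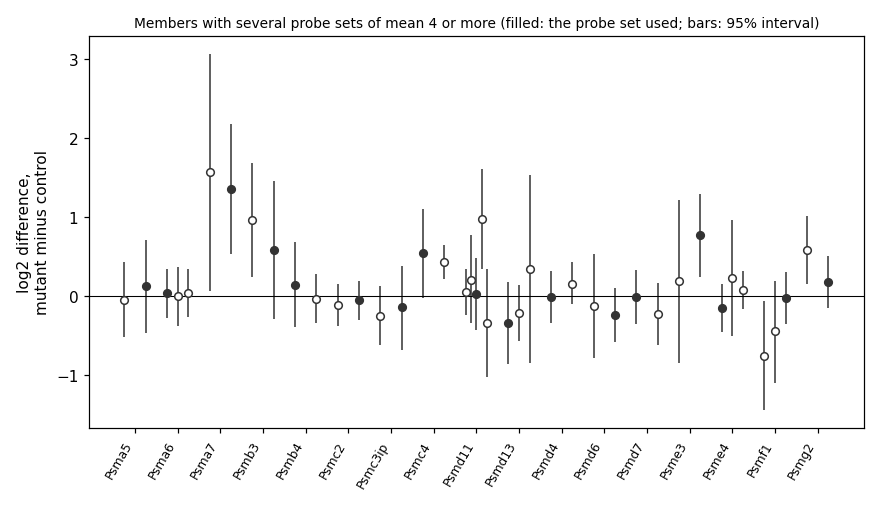
Log2 difference, mutant minus control, of every probe set with a mean of 4 or more in the 17 genes that have at least 2 such probe sets, with 95% intervals without a block; filled points are the probe sets used for the gene. The 2 Psma7 points lie at 1.36 and 1.57, and the 5 Psmd11 points spread between -0.34 and 0.98.

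Among genes that work with the proteasome but lie outside the family, 29 of 39 listed were measured. Of the 29, 27 had a mean of at least 4. Without a block 0 passed, and an unadjusted p under 0.05 was reached by 5 higher and 1 lower. Among all genes with a mean of at least 4 those shares were 15.8% and 14.8%. With the block 5 of the 29 rose (6.60% of all genes, and 11.0% of those with a mean of at least 4) and 0 fell. With the block 0 rose without replicate 3 or without replicate 4 of both groups, 1 without replicate 1, and 0 with the Sertoli or the Gapdh covariate. Ubqln2, a shuttle that brings ubiquitinated proteins to the proteasome, read 6.43, 3.51, 5.90 and 6.21 on mutant arrays, against 3.91, 2.78, 4.33 and 4.0 on control arrays. Mutant array 2 fell inside the control range and each other mutant array lay above it, and the control mean of 3.75 lies in the compressed range (log2 difference 1.76, adjusted p = 0.161, and 0.0177 with the block). With the Sertoli marker mean as a covariate the difference was -0.68. Pomp, the chaperone that completes the 20S core, had a difference of 0.67 (adjusted p = 0.181, and 0.0346 with the block). Zfand5, which binds and stimulates the proteasome, was higher on every mutant array than on any control array by a mean of 0.49 (adjusted p = 0.0554, and 0.0345 with the block). Nsfl1c (p47), a cofactor of the segregase Vcp, and Txnl1, a thioredoxin-like protein of the 19S particle, had differences of 1.28 and 0.41 (adjusted p = 0.0474 and 0.0481 with the block). Of 18 spermatocyte markers, all with a mean of at least 4, 0 passed without the block (6 higher and 1, Ccna1, lower by the unadjusted p). With the block 4 rose (11.0% of genes with a mean of at least 4), among them Sycp3, a synaptonemal complex protein, by 0.99. Differences were positive for 14 of the 18 and negative for 4, with Ccna1 at -0.40. Their means on mutant arrays 3 and 4 (9.40 and 9.17) lay within the control range of 9.04 to 9.50. The part of spermatocyte RNA in the values of the genes that rose with the block was not tested.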

How the data were processed

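Total RNA of 8 pools of round spermatids, each from 7 animals, was hybridised as biotin-labelled cRNA made from 2 µg of RNA, per the labels' protocols. Groups and replicate numbers come from the sample titles. The authors deposited 1 log2 intensity for each probe set and array. The submitters' processing notes name GCRMA, which corrects background by probe sequence and normalizes between arrays, and limma, with versions and roles not given in the sources used here. Such correction compresses dim values, which understates their differences. The deposited table holds 45101 probe sets, of which 64 control probe sets were left out. The platform annotation names 1 gene for 34945 and several for 932 of the rest, while 9160 carry no name here. Current symbols were looked up through Entrez identifiers, which matched for 34741.

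The group difference was fitted with limma 3.58.1 (R 4.3.3) with no other term, moderated variances and two-sided tests, and Benjamini-Hochberg adjustment over all 18193 genes and a threshold of 0.05. The fit was tested on simulated data. Standard errors and 95% intervals are the model's, and their width is limited by 4 arrays a group. Without a block, each p-value measures the spread between arrays of a group, each from its own pool of animals. In a second fit the replicate number is a block, and its p-values measure the spread of the differences within pairs. What the number marks is not in the labels. Deviations from the group means correlated at 0.364, 0.416, 0.495 and 0.407 between arrays of the same number and at -0.261 to -0.017 between others. The numbers were therefore taken to pair the arrays. Such deviations sum to 0 within a group, so positive values between some arrays make the others negative on average.

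The members, gene lists and marker lists were chosen with earlier results of these data known. Values are given for genes past the threshold, a fixed set (Psme4, Psma8, Psma7, Psme3, Psmb5 to Psmb10 and Psmc3ip), genes whose groups do not overlap, genes whose probe sets differ in sign with 1 past the threshold, and up to 4 genes past the threshold per other list. Any other gene given values was chosen after they were seen. A gene is called dim when its mean is under 4 in both groups. Alternatives were the replicate block, leaving out arrays, the mean of probe sets, other normalization, filters and adjustment, and covariates.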

Additional observations from a re-analysis of the deposited data

Results flagged for a closer look

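Single arrays stood apart from the other 3 of their group, by Dixon's criterion, in 3 of 98 groups of 4 arrays, where chance gives about 1 in 20. Psmb3 was low on control array 4 (9.22, against 10.36 to 10.54 on the other control arrays). Psmb6 and Psmd12 were high on control array 1 (13.24 and 11.81), the array with the highest 18S signal (11.2). Outside the probe sets used for the genes, 2 further probe sets rose with the replicate block: a second Psma7 probe set (log2 difference 1.57) and a weaker Psmd11 probe set (0.98).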

How the results depend on the processing

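Each value was recomputed under 18 alternative settings and under 13 more chosen after seeing the data, which include every fit that combines the replicate block with another change. Proteasome genes that rose numbered 0 without a block and 8 with the replicate block. They were 0 to 2 when 1 array was left out (2, Psma7 and Psme1, without mutant array 2), 1 with quantile normalization again (Psme3) and 0 under every other alternative without a block. With the replicate block they were 6 without replicate 1 of both groups, 6 without replicate 2, 0 without replicate 3, 2 without replicate 4 and 0 in pairs 2 and 4 alone. They were 4 with the mean of probe sets, 6 adjusted over probe sets, 8 among genes of mean at least 4 (a filter that Psme1, with a control mean of 3.54, passes only through its mutant arrays), 8 with equal medians, 8 with quantile normalization and 9 with eBayes trend and robust, which adds Psmb3, and 0 with the Sertoli or the Gapdh covariate, which leave fewer degrees of freedom. None fell under any alternative run. The Sertoli marker means do not overlap between the groups, so that covariate is also tied to the group term. The cause of each change was not tested.

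Proteasome-associated genes that rose numbered 0 without a block, 0 to 2 when 1 array was left out, 1 with the mean of probe sets and 5 with the replicate block. With the block they were 1 without replicate 1, 3 without replicate 2, 0 without replicate 3, 0 without replicate 4, 0 in pairs 2 and 4 alone, 0 with the Sertoli or the Gapdh covariate, 4 with the mean of probe sets, 3 adjusted over probe sets, 4 of mean at least 4, 5 with equal medians, 3 with quantile normalization and 4 with trend and robust, and 1 fell with the mean of probe sets and 1 with trend and robust. Of interferon genes 1 rose with the block without replicate 2.

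Over all genes 339 rose and 336 fell without a block, and 1201 and 899 with the replicate block. Leaving out 1 array gave 70 to 755 and 129 to 376, and leaving out control arrays 1 and 3 together gave 18 and 50. Adjustment over probe sets gave 189 rises, quantile normalization again 618 falls, the Sertoli covariate 10 and 17, and the Gapdh covariate 120 and 140. With the block the counts were 627 and 521 without replicate 1, 1402 and 862 without replicate 2, 79 and 115 without replicate 3, 358 and 308 without replicate 4, and 26 and 35 in pairs 2 and 4. They were 1014 and 791 with the mean of probe sets, 1010 and 782 over probe sets, 1088 and 872 of mean at least 4, 1211 and 897 with equal medians, 1038 and 1146 with quantile normalization, 1527 and 1072 with trend and robust, 0 and 0 with the Sertoli covariate, and 9 and 27 with the Gapdh covariate.

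Signs of 29 of the 49 genes changed under at least 1 alternative, in no case past the threshold. With the Sertoli covariate the log2 difference was 0.07 for Psmb6, 0.12 for Psmc3ip, -0.27 for Psme1 and -0.68 for Ubqln2. With that covariate and the block it was 0.07 for Psmb6, 0.00 for Psmb7, 0.28 for Psmc3, 0.31 for Psmc3ip, 0.30 for Psmd13, 0.43 for Psmd9, -0.35 for Psme1, -0.17 for Psme3, 0.01 for Psme4 and -0.05 for Psmg2. The Gapdh covariate gave 0.01 for Psmb8 and 0.02 for Psmc3ip. The mean of probe sets gave 0.00 for Psme4 with and without the block. Control arrays 1 and 3 left out together gave 0.03 for Psmb7 and 0.15 for Psmc3ip. Leaving out 1 array gave -0.09 to 0.02 for Psmb7, -0.10 to 0.02 for Psmb8, -0.28 to 0.07 for Psmc3ip, -0.08 to 0.20 for Psmd11 and -0.10 to 0.07 for Psmf1. With the block, leaving out replicate 2 gave 0.00 for Psmb8 and 0.10 for Psmf1, leaving out replicate 3 gave 0.01 for Psmb7 and 0.00 for Psmb8, and leaving out replicate 4 gave -0.02 for Psmd11 and 0.02 for Psmf1. Psme1 and Ubqln2, which rose with the block, are among the genes whose sign turned with the Sertoli covariate. Psme3 turned with that covariate and the block together, and stood at 0.71 with the covariate alone. For the other proteasome genes that rose with the block, the covariate alone moved the difference both ways. It was larger for Psma1 (0.86), Psma2 (1.59), Psmb1 (1.22), Psmc1 (1.18) and Psmc4 (0.96), and smaller for Psma7 (0.49). Because the Sertoli marker means did not overlap between the groups, these fits cannot fully separate the covariate from the group difference. The part of Sertoli RNA in these values was not tested, and 4 arrays a group limit what can be resolved.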
